A study of Homo sapiens with 6 samples.

Results

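Activator protein 1 (AP-1) is a family of transcription factors built from pairs of basic leucine zipper (bZIP) proteins. Its 10 subunit genes examined here were FOS, FOSB, FOSL1, FOSL2, JUN, JUNB, JUND, ATF3, MAFF and BATF3, taken by symbol from a table of 18539 genes, and all 10 were found. All 10 were also among the 17194 genes that passed the filter on low values. The RNA came from A375, a human malignant melanoma cell line that carries an activating BRAF mutation. Cells of the first group (shMMP9, 3 libraries) had been infected with a lentivirus for a short hairpin RNA in the pLKO.1 vector, directed at the coding sequence of MMP9, the gene of a secreted gelatinase. Cells of the other group (shControl, 3 libraries) carried a control hairpin, whose target is not given in the sources used here. Both groups were grown in medium with fetal bovine serum, infected in the presence of polybrene and kept under puromycin selection for weeks before RNA was taken. A single MMP9 hairpin was used, and no label says that the replicates were separate cultures, so p-values measure the spread between these libraries, which may be technical.

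FOS proteins do not form stable pairs with each other and bind DNA with a JUN partner, whereas JUN proteins can pair with both families. ATF3, MAFF and BATF3 are bZIP relatives that pair with JUN or FOS proteins or with other bZIP factors. The genes FOS, FOSB, JUN and JUNB are immediate early genes, switched on within minutes of growth factor or stress signals, while FOSL1 follows more slowly and builds up where ERK kinase signalling is sustained. In melanoma, FOSL1 and JUN are known from dedifferentiated, invasive cell states.

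The hairpin target in MMP9, on chromosome 20, is shown with the bases that pair with the seed of the hairpin's guide strand (guide bases 2 to 8) in capitals, since this is the reagent that separates the groups.
MMP9 target: cattcagggagacGCCCATTt
No 3' untranslated region of the 10 subunit genes (the longest annotated one of each gene in GENCODE release 29) held the 7-base seed match, which 10% of 13862 tested genes held. The longest run of the target found in any annotated transcript of the 10 genes was 8 bases.

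In a first check of the labels, MMP9 had scaled counts of 16.2, 14.6 and 17.1 in shMMP9 libraries, against 26.1, 24.3 and 28.7 in shControl libraries. Every shMMP9 library was below every shControl library, and MMP9 fell by 0.69 on the log2(scaled count + 1) scale (SE 0.08, limma adjusted p = 1.25e-05). A scaled count is the deposited value brought back from its log2 scale, and behaves as a read count per gene scaled to the same upper quartile in all libraries. The libraries held an estimated 21854096 to 25895661 reads in shMMP9 and 24319950 to 28005519 in shControl. Genes of the mitochondrial chromosome held 0.617 to 0.708% of reads in shMMP9 and 1.64 to 1.79% in shControl, and the part of that difference in the results was not tested. Among shControl libraries, replicate 1 stood furthest from the others (chi-square per gene of 14.2 and 9.81 against them, with 4.07 between replicates 2 and 3). The melanocytic markers (8 of 10 listed) summed to 1342 to 1417 in shMMP9 and 524 to 551 in shControl, mostly SOX10 and, in shMMP9, ERBB3. MITF of the same list went the other way, with 27.7 ± 0.876 in shMMP9 and 35.5 ± 2.48 in shControl. PMEL was low at 1.76 ± 0.274 in shMMP9 and 1.70 ± 0.186 in shControl (SD, n = 3 each), MLANA and TYRP1 were below 1 in all 6 libraries, and TYR and DCT were not listed. Markers of other cell types were summed per library. Keratinocyte markers (4 of 9 listed) summed to 137 to 147 in shMMP9 and 83.5 to 94.8 in shControl, mostly KRT10. The keratinocyte markers DSC3 (11.1 in shMMP9 and 13.6 in shControl) and KRT5 (0.0367 in shMMP9 and 0.370 in shControl) were lower on average in shMMP9. Fibroblast markers (9 of 9 listed) summed to 27.8 to 30.6 in shMMP9 and 52.0 to 57.1 in shControl, with THY1 below 1 in all 6 libraries and PDGFRA higher in shMMP9 (5.46, against 2.16 in shControl). Endothelial markers (7 of 8 listed) summed to 22.5 to 25.9 in shMMP9, mostly KDR, and 56.0 to 64.9 in shControl, mostly TIE1. KDR (16.1 in shMMP9 and 6.44 in shControl) and PECAM1 (2.05 in shMMP9 and 1.19 in shControl) were higher on average in shMMP9, against the direction of that sum. Leukocyte markers (4 of 8 listed, with PTPRC, CD3E and ITGAM among those not listed) summed to 98.9 to 102 in shMMP9 and 115 to 136 in shControl, mostly CD68, while LYZ was higher in shMMP9 (6.83, against 2.20 in shControl). The part of these markers in the results was not tested. All 6 libraries are labelled as the A375 cell line, so these sums give levels of genes and do not count cells of other types. In these bulk samples, fewer cells expressing a gene and less RNA per cell cannot be told apart.

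The AP-1 subunits differed in opposite directions between shMMP9 and shControl libraries. FOS, FOSB, ATF3 and JUNB rose, and JUN, FOSL2, FOSL1, JUND and MAFF fell, while BATF3 did not pass the test (limma, Benjamini-Hochberg adjusted p under 0.05 over all genes tested). Thus 4 of 10 were called higher and 5 lower, against 25% of all tested genes higher and 32.5% lower, and 9 of 10 were called in either direction, against 57.5% of all genes. The counts were the same without shControl replicate 1. Groups did not overlap for 9 of the 10 subunits, against 62.7% of all genes. A change of 1 or more on the log2 scale was called for 6 of the 10 subunits, against 8.17% of all genes. The median log2 fold change was -0.21 for the 10 genes and -0.05 for all genes. No test was made of the list as a whole, and its members were chosen with earlier results of these data known.

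**Figure D1:**
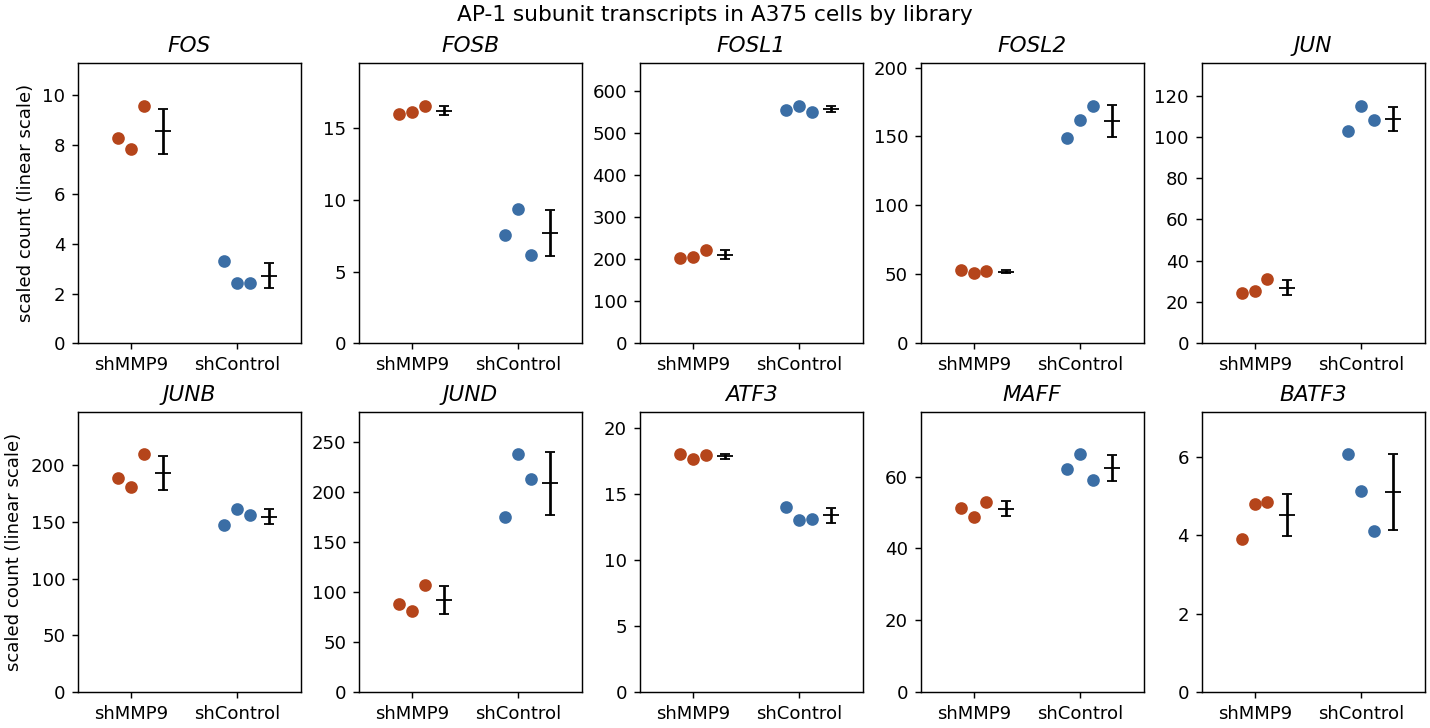
Scaled count of each AP-1 subunit gene (vertical axes, linear, starting at 0) in the 3 shMMP9 and 3 shControl libraries, with the mean and SD of each group as a black bar beside the points. The groups do not overlap for any gene but BATF3, and FOS, FOSB, JUNB and ATF3 are higher in shMMP9 while FOSL1, FOSL2, JUN, JUND and MAFF are lower.

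Of the FOS family, FOS (chr14:75278774-75282230, GRCh38, plus strand) encodes the founding member, a short-lived protein induced by growth signals. It had scaled counts of 8.26, 7.81 and 9.57 in shMMP9 libraries, against 3.31, 2.44 and 2.43 in shControl libraries. The lowest shMMP9 library stood well above the highest shControl library, on 197 to 259 estimated reads in shMMP9 and 65 to 93 in shControl. FOS rose by 1.36 on the log2(scaled count + 1) scale (SE 0.13, limma adjusted p = 1.18e-06), a value that lay above that of 98.3% of all genes. The ratio of means was 3.14, more than the fold change on that scale gives, because the added 1 weighs on a gene at this level.

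FOSB (chr19:45467995-45475179, plus strand), the close relative of FOS that is likewise induced by stimuli, stood at 16.0, 16.1 and 16.5 in shMMP9 libraries, against 7.55, 9.36 and 6.12 in shControl libraries. The shMMP9 libraries lay close together and above all shControl libraries, whose SD of 1.62 was the wider (0.293 in shMMP9, n = 3 each). FOSB rose by 1.01 on the log2(scaled count + 1) scale (SE 0.12, limma adjusted p = 1.09e-05). The gene overlaps ERCC1 on the other strand, with no shared exon bases.

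FOSL1 (chr11:65892049-65900573, minus strand) encodes FRA1, the FOS family member most tied to sustained ERK signalling. Its scaled counts were 204, 205 and 223 in shMMP9 libraries, against 554, 565 and 551 in shControl libraries. The ranges lay far apart and were narrow in both groups. FOSL1 fell to 0.378 times its shControl mean, a log2 fold change of -1.40 (SE 0.05, limma adjusted p = 5.86e-11).

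FOSL2 (chr2:28392448-28417312, plus strand) encodes FRA2, the other FOS-related antigen. It had scaled counts of 53.0, 50.8 and 52.3 in shMMP9 libraries, against 149, 162 and 172 in shControl libraries. The shMMP9 libraries lay close together and below all shControl libraries. FOSL2 fell to 0.323 times its shControl mean, with a log2 fold change of -1.61 (SE 0.06, limma adjusted p = 6.03e-11).

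In the JUN family, JUN (chr1:58780788-58784327, minus strand) encodes c-Jun, the main substrate of the JNK kinases and a strong activator of transcription. It stood at 24.4, 25.4 and 31.1 in shMMP9 libraries, against 103, 115 and 108 in shControl libraries. The highest shMMP9 value was far below the lowest shControl value. JUN fell to 0.248 times its shControl mean, the largest fall of the 10 genes, with a log2 fold change of -1.98 (SE 0.08, limma adjusted p = 2.35e-10) that only 0.989% of all genes went below.

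JUNB (chr19:12791496-12793315, plus strand) encodes a JUN protein that can oppose c-Jun in proliferation. Its scaled counts were 189, 181 and 209 in shMMP9 libraries, against 147, 161 and 156 in shControl libraries. The groups did not overlap, with an SD of 14.8 in shMMP9 and 6.98 in shControl (n = 3 each). JUNB rose by 0.32 (SE 0.06, limma adjusted p = 0.000474), with a 95% interval of 0.19 to 0.44. Of its exon bases 14.2% overlap exons of HOOK2 on the other strand, and the strand setting of the counting is not given, so reads of that stretch cannot be assigned. HOOK2 averaged 15.8 in shMMP9 and 19.4 in shControl, well under JUNB.

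JUND (chr19:18279760-18281622, minus strand), the JUN family member that is expressed steadily in many resting cells, had scaled counts of 87.5, 81.2 and 107 in shMMP9 libraries, against 175, 237 and 213 in shControl libraries. Its groups were clearly apart, and its shControl libraries were the most spread of the 10 genes in absolute terms (SD 31.3, n = 3). JUND fell to 0.441 times its shControl mean, with a log2 fold change of -1.17 (SE 0.11, limma adjusted p = 6.84e-07).

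The other 3 members had smaller differences than FOS, FOSB, FOSL1, FOSL2, JUN and JUND. ATF3 (chr1:212565334-212620777, plus strand), a stress-induced factor that represses or activates depending on its partner, had scaled counts of 18.0, 17.6 and 18.0 in shMMP9 libraries, against 14.04, 13.1 and 13.1 in shControl libraries, without overlap. It rose by 0.39 (SE 0.08, limma adjusted p = 0.000706). MAFF (chr22:38200767-38216511, plus strand), a small MAF protein without an activation domain of its own, stood at 51.3, 48.9 and 53.0 in shMMP9 libraries and 62.0, 66.2 and 59.0 in shControl libraries, again without overlap. It fell by 0.28 (SE 0.06, limma adjusted p = 0.00101). BATF3 (chr1:212686418-212699985, minus strand), known from dendritic cell development and able to pair with JUN proteins, stood at 3.89, 4.80 and 4.84 in shMMP9 libraries and 6.06, 5.13 and 4.11 in shControl libraries. These ranges overlapped, and its log2 fold change of -0.14 had a 95% interval of -0.44 to 0.16 (limma adjusted p = 0.414), which leaves changes of either sign possible at 110 to 170 estimated reads a library.

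**Figure D2:**
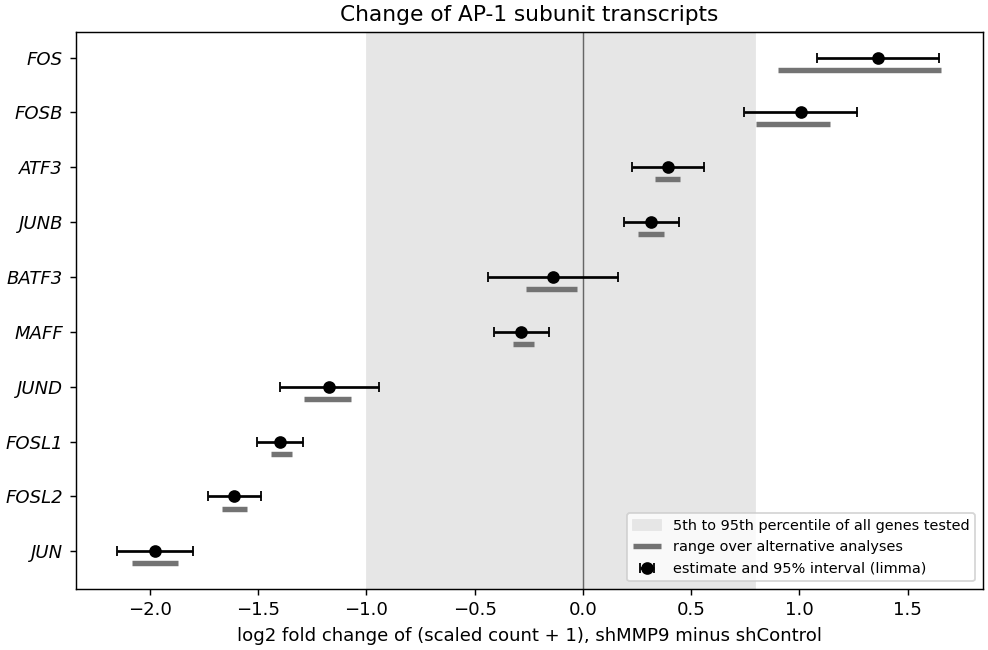
Log2 fold change of (scaled count + 1), shMMP9 minus shControl, for each AP-1 subunit gene, with the limma estimate and 95% interval (points and bars), the range over the alternative analyses (grey lines) and the 5th to 95th percentile of all tested genes (shaded, -0.997 to 0.79). The estimates of JUN, FOSL2, FOSL1 and JUND lie below the shaded band, and those of FOS and FOSB lie above it. The intervals of JUND and FOSB reach into the band, and the intervals of all but BATF3 exclude 0.

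Because genes of different length collect different numbers of reads, levels were compared between subunits as scaled counts per kb of annotated exon. FOSL1 had the highest level in both groups, at 112 ± 5.53 per kb in shMMP9 and 295 ± 3.83 in shControl (SD, n = 3 each). In shMMP9 the order was FOSL1, JUNB, JUND, MAFF, JUN, FOSL2, ATF3, FOSB, FOS and BATF3. Neighbours in that order overlapped in their libraries for FOSL1 and JUNB, for MAFF and JUN, for JUN and FOSL2 and for FOSB and FOS. In shControl it was FOSL1, JUND, JUNB, JUN, FOSL2, MAFF, ATF3, BATF3, FOSB and FOS, and among neighbours only BATF3 and FOSB overlapped. JUNB, at 106 ± 8.14 per kb in shMMP9 and 85.0 ± 3.84 in shControl, overlapped FOSL1 in shMMP9, whereas FOSL1 stood well above every other subunit in shControl. The order in shMMP9 depends on the gene length used. Per kb of the longest transcript, an alternative added after the levels had been seen, ATF3 (8.51 ± 0.101) stood above FOSL2 (7.75 ± 0.165) in shMMP9 and above the mean of JUN (7.62 ± 1.03). FOSL1 (126 ± 6.25) and JUNB (106 ± 8.14) no longer overlapped in shMMP9 on that scale, and the order in shControl was the same as with all exons.

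Summed over the 10 genes, the length-scaled AP-1 level was 303 ± 22.5 in shMMP9 and 564 ± 26.1 in shControl (SD, n = 3 each). The summed FOS family had 124 ± 5.88 in shMMP9 and 320 ± 4.08 in shControl, and the summed JUN family 163 ± 16.4 in shMMP9 and 228 ± 22.3 in shControl. None of these sums overlapped between groups. FOS and FOSB together had 5.56 ± 0.329 in shMMP9 and 2.23 ± 0.324 in shControl, while FOSL1 and FOSL2 together had 119 ± 5.56 in shMMP9 and 318 ± 3.95 in shControl.

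The make-up of this pool was then compared as each gene's share within its own library, on which the scaling between libraries has no bearing. JUNB held 35.4, 34.7 and 35.1% of the pool in shMMP9 libraries, against 15.04, 15 and 15.18% in shControl libraries. FOSL1 held 36.8, 38.01 and 35.9% in shMMP9 libraries, against 54.6, 50.8 and 51.8% in shControl libraries. JUN held 2.51 ± 0.168% in shMMP9 and 5.45 ± 0.0555% in shControl, and FOSL2 held 2.41 ± 0.159% in shMMP9 and 3.996 ± 0.239% in shControl (SD, n = 3 each). FOS and FOSB held 0.871 ± 0.0283% and 0.968 ± 0.0552% in shMMP9, against 0.150 ± 0.0348% and 0.245 ± 0.0456% in shControl. The shares of MAFF, ATF3 and BATF3 were also higher in every shMMP9 library than in any shControl library, and those of JUND overlapped. A share also rises when the rest of the pool shrinks, and the summed level was 303 in shMMP9 and 564 in shControl. The level of MAFF itself was lower in shMMP9, and that of BATF3 did not pass the test. For the 9 genes without overlap the two-sided exact permutation p was 0.1, the smallest that 3 against 3 libraries can give, with an adjusted p of 0.111 over the 10 genes, so the shares could not pass the 0.05 threshold in this design.

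**Figure D3:**
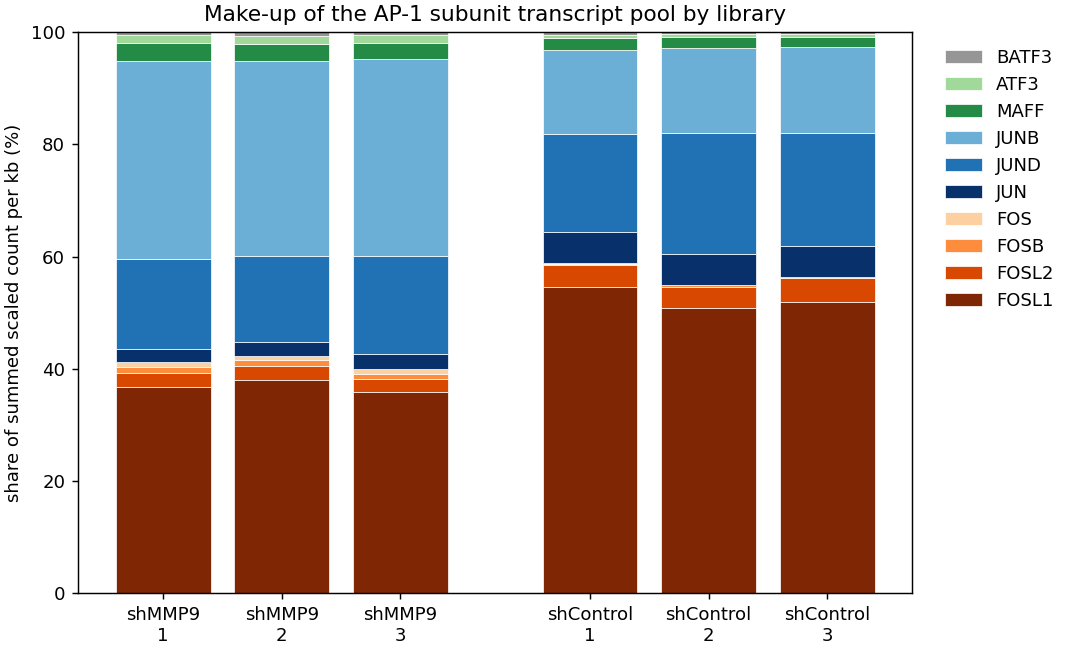
Share of each AP-1 subunit gene (percent, vertical axis from 0 to 100) in the summed scaled count per kb of the 10 genes, one stacked bar per library, with the FOS family in orange and brown, the JUN family in blue and the other members in green and grey. FOSL1 takes 35.9 to 38.01% in shMMP9 and 50.8 to 54.6% in shControl, and JUNB 34.7 to 35.4% in shMMP9 and 15 to 15.18% in shControl.

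Within the JUN family, JUNB made up 65.2 ± 1.49% in shMMP9 and 37.5 ± 2.03% in shControl. JUND made up 30.2 ± 1.37% in shMMP9 and 49.0 ± 2.65% in shControl, and JUN 4.67 ± 0.263% in shMMP9 and 13.5 ± 0.641% in shControl (SD, n = 3 each). The leading JUN transcript was therefore JUNB in shMMP9 libraries and JUND in shControl libraries. Within the FOS family, FOSL1 led in both groups, at 89.7 ± 0.263% in shMMP9 and 92.3 ± 0.408% in shControl. The shares within families were added after the levels had been seen, and none overlapped between groups. Without length scaling, the difference in family share, shMMP9 minus shControl, was -14.46 percentage points for JUN (-8.86 with it), 4.597 for FOSB (1.92 with it) and -4.0 for FOSL2 (-1.19 with it).

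Ratios between subunits in the same library gave the contrast in another form. FOSL1 exceeded FOS by 42.4-fold per kb in shMMP9 and 354-fold in shControl, with log2 ratios of 5.41, 5.49 and 5.32 in shMMP9 libraries against 8.16, 8.64 and 8.61 in shControl libraries. These fold values depend on the length given to FOS and were 31.9 in shMMP9 and 267 in shControl with the longest transcript of each gene. JUNB exceeded JUN by 13.97-fold in shMMP9 and 2.77-fold in shControl, with log2 ratios of 3.92, 3.79 and 3.71 in shMMP9 libraries against 1.47, 1.45 and 1.49 in shControl libraries. The FOS family stood at 0.765 times the JUN family in shMMP9 and at 1.41 times the JUN family in shControl. The log2 ratios of FOSL2 to FOS, FOSB to FOS and JUND to JUN differed by -3.29, -0.56 and 0.84, shMMP9 minus shControl. All 6 ratios kept the groups apart without overlap, each at the smallest exact two-sided permutation p of 0.1 (adjusted p = 0.1 over the 6 ratios).

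**Figure D4:**
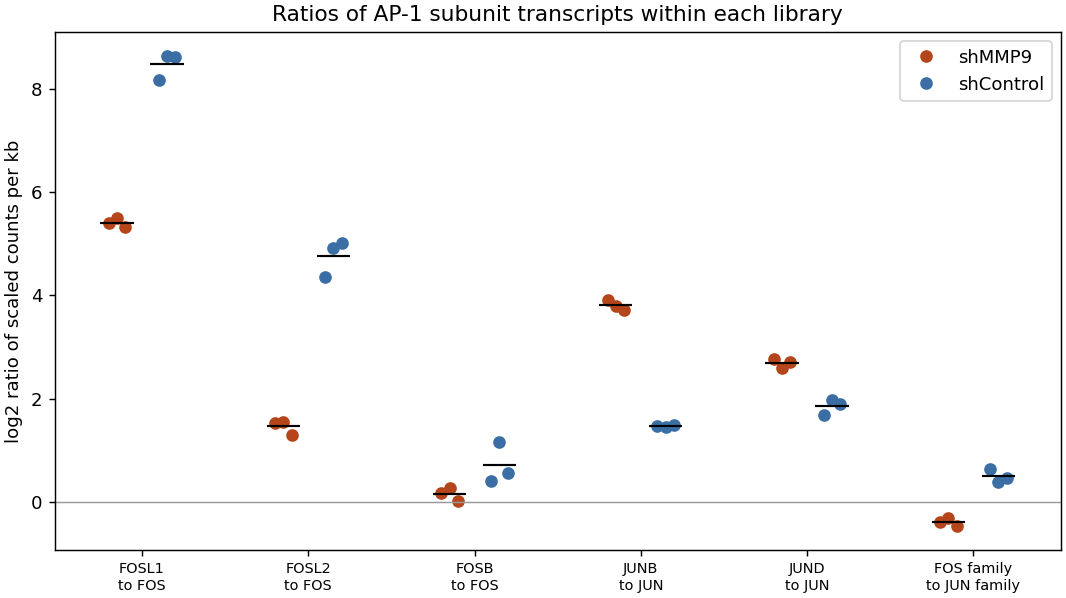
Log2 ratios of scaled counts per kb between AP-1 subunit genes within each library (points) with group means (black lines), shMMP9 to the left of shControl for each pair. FOSL1 and FOSL2 relative to FOS are lower in shMMP9, JUNB and JUND relative to JUN are higher, and the ratio of the FOS family to the JUN family is below 0 in shMMP9 and above 0 in shControl.

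Promoters were inspected because AP-1 genes are themselves known to carry AP-1 and cyclic AMP response element (CRE) sites. RefSeq promoter windows on GRCh38.p14, from 250 bases before to 50 bases after an annotated start, matched 8 of the 10 genes and 10 starts. FOSL1 and BATF3 were not searched. Both strands were searched for the CRE core TGACGT, the full CRE TGACGTCA that contains it, the AP-1 site TGANTCA, the variant TGACATCA known from the JUN promoter, and the CArG box bound by SRF. For each of 7 genes the 30 bases around a match upstream of the RefSeq start are shown, 5' to 3' on the strand of the gene. The match is in capitals. RefSeq starts can differ from the GENCODE gene ends given above. The stretches shown for FOSL2, MAFF and JUN lie inside those GENCODE spans, and that of FOS reaches into its span.
FOS (chr14:75278752-75278781, plus strand): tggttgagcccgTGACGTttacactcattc
FOSB (chr19:45467924-45467953, plus strand): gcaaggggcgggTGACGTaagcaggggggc
FOSL2 (chr2:28392780-28392809, plus strand): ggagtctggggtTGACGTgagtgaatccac
JUND (chr19:18281804-18281833, minus strand): ggccgcccccaTGACGTCAacccacaaggc
MAFF (chr22:38201929-38201958, plus strand): ggccgggtcggTGACGTCAccgcatgactg
JUN (chr1:58784096-58784125, minus strand): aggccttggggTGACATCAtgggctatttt
ATF3 (chr1:212565273-212565302, plus strand): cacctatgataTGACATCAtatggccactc

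Among the 8 genes searched, JUNB held none of the motifs within the windows. The CRE core and the TGACATCA variant were each found in genes that rose and in genes that fell. The CRE core was found in FOS and FOSB, which rose, and in FOSL2, JUND and MAFF, which fell, so in 5 of the 10 promoter windows against 7.98% of 35116 windows of all genes. It began 64 bases before the RefSeq start in FOS, 60 in FOSB and 66 in FOSL2. The full CRE was in JUND and MAFF, against 1.85% of all windows, and the TGACATCA variant in JUN, which fell, and ATF3, which rose, against 2.61%. An AP-1 site was found in FOSL2, inside the transcribed part of the window, against 7.71% of all windows. A CArG box was in none of the 10 windows, against 1.29%. Sites more than 250 bases before a start were not searched, so a CArG box further upstream would have been missed. These are matches of letters and not measurements of binding.

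A chosen list of 29 other bZIP genes, some of which pair with AP-1 subunits, covered part of that family. Of 27 tested, 8 rose and 7 fell, with a median log2 fold change of 0.07. The shares of all tested genes were 25% higher and 32.5% lower. MAF, a large MAF factor, rose by 1.89 (SE 0.06, limma adjusted p = 1.21e-11), with 84.5 ± 2.45 in shMMP9 and 22.03 ± 0.790 in shControl. JDP2, which pairs with JUN proteins and represses AP-1 sites, fell by 2.07 (SE 0.14, limma adjusted p = 4.20e-08), with 1.15 ± 0.278 in shMMP9 and 7.99 ± 1.23 in shControl (SD, n = 3 each). CEBPD fell by 1.12, and NFE2L2, which encodes the oxidative stress factor NRF2 and pairs with small MAF proteins, rose by 0.44.

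Counts in this paragraph stand against 25% of all tested genes higher and 32.5% lower. Upstream of AP-1, the kinases of the JNK and p38 stress pathways had 5 of 18 tested genes higher and 8 lower, with a median log2 fold change of -0.12. The count of higher genes was 3 when shMMP9 replicate 1 or 3 or shControl replicate 1 or 3 was left out. MAP2K6, an activator of p38, rose by 1.24, while the JNK scaffold gene MAPK8IP3 fell by 0.55. The p38 kinase genes MAPK12 and MAPK13 fell by 1.17 and 1.19, with MAPK13 low in both groups (1.27 in shMMP9 and 4.20 in shControl). Of the other p38 kinase genes, MAPK11 fell by 0.31 (limma adjusted p = 0.0119) and MAPK14 had a value of 0.02 (limma adjusted p = 0.815). MAPK8, which encodes JNK1, fell by 0.34 (limma adjusted p = 0.00195), and MAPK9, which encodes JNK2, had a value of -0.02 (adjusted p = 0.848). MAPK10, among the 8 lower genes, needed the shControl libraries to pass the low-value filter (0.372 in shMMP9 and 1.04 in shControl). Among SRF, its ternary complex partners, its MRTF coactivators and genes of ERK, RSK and MSK kinases, 5 of 13 rose and 5 fell. The median of these 13 genes was -0.05. The count of lower genes was 3 when shMMP9 replicate 1 or 2 or shControl replicate 3 was left out. The kinase genes RPS6KA5, RPS6KA1 and RPS6KA3 rose by 0.89, 0.54 and 0.30. Of the same kinase family, RPS6KA4 fell by 0.27 (limma adjusted p = 0.0211) and RPS6KA2 had a value of -0.17 (limma adjusted p = 0.111). SRF, which drives FOS transcription, had a value of -0.05 (adjusted p = 0.547). Of 7 genes for turnover of AP-1 proteins and related factors, 3 rose and 1 fell, with a median of 0.10. The pseudokinase genes TRIB2 and TRIB1 rose by 2.15 and 0.42, and the ubiquitin ligase gene ITCH, whose product marks JUN proteins for degradation, rose by 0.22.

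Genes known as AP-1 targets were mostly lower. Of 25 tested, 18 fell and 4 rose, against 32.5% lower and 25% higher of all tested genes. The median log2 fold change of these 25 genes was -0.60. MMP9, the hairpin's own target, is one of them, and without it 17 of 24 fell and 4 rose. The list was written with earlier results of these data known and several of its members answer to other factors as well, so it is no independent evidence of direction. The cytokine gene IL6 had scaled counts of 1.54, 0.952 and 1.07 in shMMP9 libraries, against 56.1, 47.5 and 49.7 in shControl libraries, with a log2 fold change of -4.58. IL1B averaged 9.79 ± 0.391 in shMMP9 and 136 ± 11.01 in shControl (SD, n = 3 each). TIMP1, an inhibitor of metalloproteinases, rose by 1.57, with 489 ± 8.34 in shMMP9 and 164 ± 6.82 in shControl. The other genes that rose were MMP1, MMP10 and VEGFA, and MMP10 was below 0.1 in every shControl library. The low-value filter needed only 3 libraries, so a gene could pass through 1 group alone. MMP10 passed through shMMP9 (0.882 on average). MMP3 (0.313 in shMMP9 and 2.96 in shControl) and PLAU (0.184 in shMMP9 and 1.48 in shControl), which fell, needed the shControl libraries to pass. The direction of these genes is therefore no evidence about the list.

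**Figure D5:**
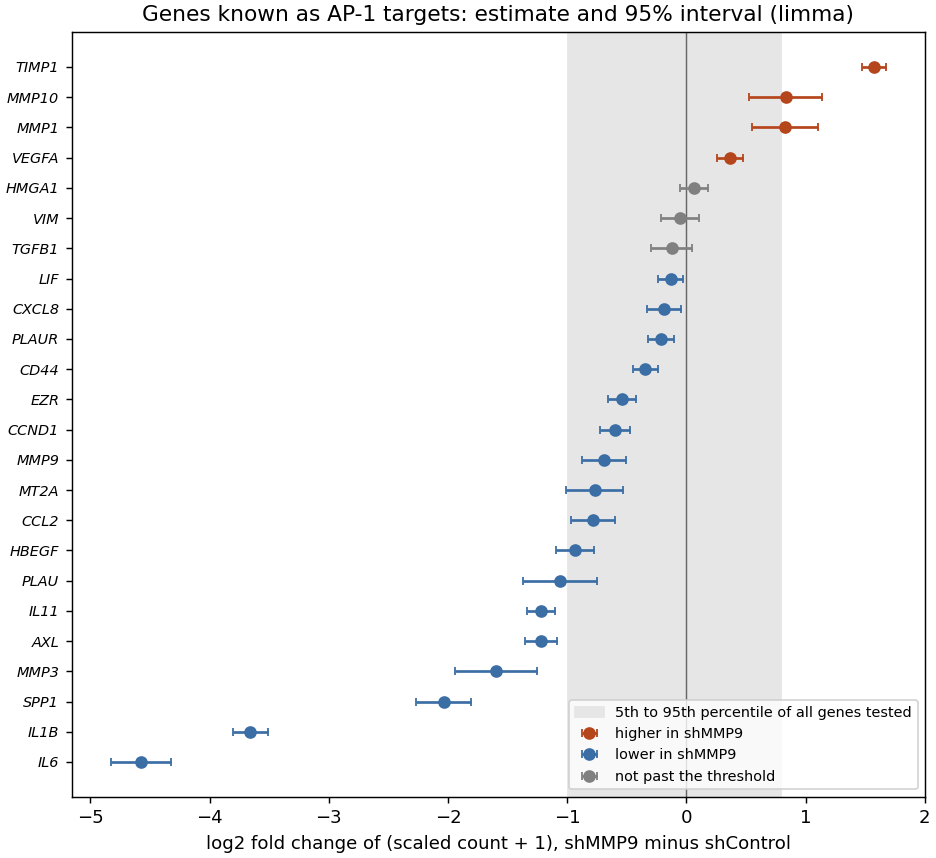
Log2 fold change of (scaled count + 1), shMMP9 minus shControl, of 24 of the 25 genes known as AP-1 targets, with 95% intervals from limma and the 5th to 95th percentile of all tested genes shaded. The 17 plotted genes lower in shMMP9 run from IL6 at -4.58 to LIF at -0.13, and TIMP1 at 1.57 is the highest of the 4 that rose.

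Other immediate early genes, which share inducers with FOS, also went both ways, with 9 of 20 tested higher and 7 lower. Their median log2 fold change was 0.05, and the shares of all tested genes were 25% higher and 32.5% lower. EGR1, a zinc finger factor, rose by 2.73 and had scaled counts of 70.8, 71.9 and 75.7 in shMMP9 libraries, against 9.87, 9.81 and 10.7 in shControl libraries. EGR3 rose by 2.42, and CYR61 and CTGF, matricellular genes, fell by 2.604 and 1.83. IER2, another early response gene, had a value of -0.01 (limma adjusted p = 0.846).

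Genes of like pattern were sought among 11180 genes with a mean CPM of 5 or more and a plain symbol. Symbols of LOC, LINC, clone, open reading frame and antisense type, and those with a dot, were left out. Nearest to FOS in centred log2 values over the 6 libraries were SLC35F1, PDE4D and HFE, at Euclidean distances of 0.200, 0.235 and 0.248. Their log2 fold changes were 1.39, 1.35 and 1.30. Those nearest to JUN were TFPI, EPS8L2 and ATP10A, at distances of 0.170, 0.171 and 0.194 and with log2 fold changes of -2.08, -2.04 and -2.09.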

How the data were processed

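RNA of 6 A375 libraries was sequenced, 3 shMMP9 and 3 shControl, grouped by the labels. STAR 2.6.1d and Partek with the hg38 build are named in the submitters' processing notes. How reads were counted, the annotation and the strand setting are not stated. Values in the deposited table are on a log2 scale. They behave as log2(scaled count + 1), with the same upper quartile (45.3 to 45.4) in all libraries, although the table is named as counts. Since these are not raw counts, no count test was run, and limma was used on the deposited log2 values. Estimated reads were read from the value of 1 read per library, and 64.6 to 67.8% of values were whole within 0.01 reads, too few for a count test.

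Genes were kept if at least 3 libraries reached 10 reads at median depth and the total reached 15 (17194, with 1345 removed). They were fitted with limma 3.58.1 in R 4.3.3, with a variance trend, Benjamini-Hochberg adjustment over all genes and a threshold of 0.05. Replicates differed by more than sampling noise (chi-square per gene 2.57 to 14.2). The scripts were tested on simulated data. Gene places and lengths came from GENCODE release 29 on GRCh38. Shares and ratios used exact permutation tests over libraries. The members and gene lists were chosen with earlier results of these data known. Named genes are all members, up to 4 of each list by adjusted p and 3 genes of like pattern for each of 2 members. MAPK8, MAPK9, MAPK10, MAPK11, MAPK14, RPS6KA2, RPS6KA4, SRF, IER2, MMP1, MMP3, MMP10, PLAU, VEGFA and LIF were named after their values were seen. Alternatives were the replicate block, each library left out, other scalings, filters and pseudocounts, limma-voom, no variance trend and other gene lengths. Some genes of the lists are counted but not reported here by name. Figures were drawn with matplotlib 3.10.9.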

Additional observations from a re-analysis of the deposited data

How the results depend on the processing

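All 10 subunits kept their direction and their side of the threshold under every alternative run (15 each, and 14 for BATF3, which a minimum mean scaled count of 5 removes), with 4 higher and 5 lower each time. FOS ranged from 0.90 with a pseudocount of 4 to 1.66 with limma-voom on estimated reads, and JUNB from 0.26 to 0.38, with limma adjusted p of 8.19e-05 to 0.0104. BATF3 ranged from -0.26 to -0.03 (limma adjusted p = 0.147 to 0.883). With the replicate number as a block, FOS was at 1.36 and JUN at -1.98, as without it. The numbers are not known to pair the libraries, and deviations of same-numbered libraries correlated at 0.0402, -0.13 and -0.0258.

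Counts over lists moved more. With a minimum mean scaled count of 5, 5 other bZIP genes and 2 AP-1 targets were higher, as fewer genes were tested. Of stress kinases 3 were higher with no variance trend, 2 at a threshold of 0.01 and 3 to 5 with 1 library left out. Of SRF and its inputs 3 were lower with total-read scaling, 2 with no variance trend, 2 at a threshold of 0.01 and 3 to 5 with 1 library left out.

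Pool shares depend on gene length. The differences, shMMP9 minus shControl in percentage points, with the longest transcript were 0.988 for FOS, 0.972 for FOSB, -2.69 for JUN, 18.2 for JUNB, 1.54 for ATF3 and 1.62 for MAFF. Without length scaling they were 1.05 for FOS, 1.82 for FOSB, -12.2 for FOSL1, -4.83 for FOSL2, -4.48 for JUN, 16.6 for JUNB, 1.62 for ATF3 and 2.72 for MAFF. The log2 ratio of FOSL1 to FOS differed by -2.76 with 1 added to each level. Depth limits BATF3 and FOS most, which had the fewest reads.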
